A study of Homo sapiens with 8 samples.

Results

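The genes of MHC class II antigen presentation were followed through IFN-γ and AX-0085 treatment of A549, an epithelial cell line from a human lung adenocarcinoma. They are 10 of the 60664 rows of the count table, picked by gene symbol for their role in the pathway: CIITA, RFX5, HLA-DRA, HLA-DRB1, HLA-DPA1, HLA-DPB1, CD74, HLA-DMA, HLA-DMB and CTSS. All 10 had at least 1 count, and 8 of the 10 passed the filter on low counts that left 15066 rows for testing. HLA-DPA1 and HLA-DPB1 did not pass it. The 8 libraries form 4 groups of 2, defined by the presence or absence of IFN-γ and of AX-0085; cells that received neither are called untreated. AX-0085 is a kinase inhibitor that the study selected for blocking activation of a PD-L1 reporter by IFN-γ. IFN-γ was applied as 20 ng by the sample labels and at 20 ng/mL by the study's methods, AX-0085 followed after 24 h to a final 0.5 μM, and RNA was taken after a further 24 h. No library was taken when AX-0085 was added, so a level that came back cannot be told from a smaller change. Nothing in the labels says whether the 2 libraries of a group came from separate cultures, so p-values measure the spread between these libraries, which may be technical. The question put to the class II genes is how far IFN-γ raised them, and where AX-0085, added to cells already exposed to IFN-γ, left them.

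Class II molecules carry peptides from endosomes to the surface of a cell, where CD4+ T cells read them. An alpha and a beta chain (DR, DP or DQ) assemble around the invariant chain CD74, proteases such as cathepsin S (CTSS) trim CD74 down to a short peptide, and HLA-DM, a dimer of HLA-DMA and HLA-DMB, exchanges that peptide for antigen. Epithelial cells make few of these proteins until IFN-γ induces CIITA, the master coactivator of the genes. CIITA does not bind DNA itself. It docks on a complex of RFX5, RFXAP and RFXANK at the X box and of NF-Y at the Y box (a CCAAT sequence) of each class II promoter.

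The promoters are shown because X and Y boxes are known from class II promoters, and the choice of genes did not use sequence. The RefSeq promoter table (GRCh38.p14) matched 7 of the 10 genes. A stretch of 16 bases around the X box core AGCAAC was read from the HLA-DRB1 promoter and searched without gaps, on both strands, in the 250 bases before every start site. Capitals mark the best match to this stretch and, where it falls in the printed window, the Y box core CCAAT or its reverse complement ATTGG. Each line runs 5′ to 3′ along the gene's own strand, which is the minus strand for the 5 promoters printed: chr6:32589866-32589937 for HLA-DRB1, chr6:32953149-32953220 for HLA-DMA, chr6:32941055-32941126 for HLA-DMB, chr6:33073687-33073758 for HLA-DPA1 and chr5:150412930-150413001 for CD74.
HLA-DRB1: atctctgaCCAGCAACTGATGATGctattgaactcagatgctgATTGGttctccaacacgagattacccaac
HLA-DMA: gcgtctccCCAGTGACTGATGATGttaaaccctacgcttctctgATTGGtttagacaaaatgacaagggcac
HLA-DMB: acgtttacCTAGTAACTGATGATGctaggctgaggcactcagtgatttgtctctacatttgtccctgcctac
HLA-DPA1: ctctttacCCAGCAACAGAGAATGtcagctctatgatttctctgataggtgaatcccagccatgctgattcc
CD74: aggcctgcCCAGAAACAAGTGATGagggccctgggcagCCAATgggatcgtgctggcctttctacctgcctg

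The HLA-DMA and HLA-DMB promoters each held a match with 2 mismatches, which 0.037% of the 35116 promoters in the table reached. HLA-DPA1 matched with 3 mismatches at 1 of its 2 listed start sites (0.251% of promoters) and CD74 with 4 (2.02%). The best matches in HLA-DPB1 and in all 3 listed RFX5 promoters had 6 mismatches, as did or bettered 49.5% of promoters. Between the X match and the next Y core lay 19 bases in HLA-DRB1, 20 in HLA-DMA and 14 in CD74, whereas in HLA-DMB the next core was 52 bases away and HLA-DPA1 held 0 cores in the window at either start site. By themselves, AGCAAC occurs in 10.3% and CCAAT in 32% of these promoters. A match describes the letters of the window and is not a measured binding site.

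The libraries held between 20672828 and 29978251 counts. A count of 3, used as the detection floor, was between 0.0959 and 0.158 CPM (counts relative to a TMM-scaled library size), and limits and intervals of this kind cover counting error only. Mitochondrial genes took 1.71% and 1.82% of the counts with IFN-γ and between 2.72% and 5.73% in the other libraries, and the part of this in the results was not tested. All 6 epithelial markers examined were present, with a summed level of 8816 and 9545 CPM in untreated cells, 5755 to 6086 with AX-0085, 6508 to 7393 with IFN-γ and 7216 to 7300 with both. Of 14 markers of leukocytes, including the cells that make class II without IFN-γ, those at 0 in every library included MS4A1, CD3E, CD1C, XCR1 and CLEC9A, and PTPRC, which marks nucleated blood cells, had at most 1 count. Their summed level was 3.90 and 4.19 CPM in untreated cells, 4.70 to 4.74 with AX-0085, 2.06 to 2.21 with IFN-γ and 2.65 to 3.14 with both, so it was lowest with IFN-γ alone. Of the 14, ITGAM, ITGAX and CD79A had the most counts, 348, 225 and 91 over all libraries. From untreated cells to AX-0085 alone, mean CPM went from 0.771 to 2.11 for ITGAX, from 0.598 to 0.737 for CD79A and from 2.35 to 1.54 for ITGAM. By the threshold given below, IFN-γ lowered 5 of the 6 epithelial markers and, of the 3 leukocyte markers tested, CD79A and ITGAX. Over all genes tested, 17.2% were called lower. In bulk RNA, fewer expressing cells and less RNA per cell cannot be told apart.

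What part of each gene the counts can see matters for this locus, where genes crowd together. In GENCODE 44 on GRCh38, 1432 of 1479 protein-coding genes (96.8%) whose whole span lies inside the spans of other genes had 0 counts in all libraries although long stretches of their exons lie outside any other gene's exons. Among the 825 that are covered only when genes of the opposite strand are counted in, it was 97.8%, against 18.9% of the 6822 genes that overlap no other gene. Of 332 genes whose exons all lie inside other spans but which have some intron outside them, 12.3% were at 0, so reads in introns appear to have been counted as well. Reads from stretches shared by the spans of different genes, on either strand, were therefore nearly absent from the deposited counts. The annotation release and strand setting used for counting are not given in the sources used here. CD74, HLA-DRA, HLA-DRB1 and CTSS overlap no other gene. Of their exon bases, CIITA kept 57%, RFX5 65.3%, HLA-DPA1 98.3% and HLA-DPB1 89.6% outside other genes. The HLA-DMB counts can come only from 2735 bases at its 3′ end, with 697 of the 1348 bases of its main transcript. The free part of HLA-DMA is 15471 bases upstream of its main transcript, of which 300 are exon, and 0 of the 1093 bases of the main transcript are free, so its row does not measure the HLA-DMA mRNA.

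IFN-γ alone raised CIITA, CD74, the DR chains and CTSS, and lowered HLA-DMB. Of the 8 genes tested, 5 were called higher and 1 lower, where a call needs a Benjamini-Hochberg-adjusted p under 0.05 in edgeR's quasi-likelihood test and a fold change over 2. Over all genes tested, 10.3% were called higher and 17.2% lower. CIITA, CD74, HLA-DRA and HLA-DRB1 passed the filter only through libraries given IFN-γ, in which they were high, and so had to differ. The count of 5, later counts that include them, and their p-values are a description and support nothing more. With AX-0085 beside IFN-γ, and compared with IFN-γ alone, 3 genes were called lower (CIITA, HLA-DRA, HLA-DRB1) and 1 higher (HLA-DMB), against 8.28% and 16.5% of all genes. CIITA, HLA-DRA and HLA-DRB1 passed the filter through the libraries with IFN-γ alone, so a lower level with both agents was favoured beforehand. The count of 3 is a description too. The plot of each gene by library shows these patterns.

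**Figure D1:**
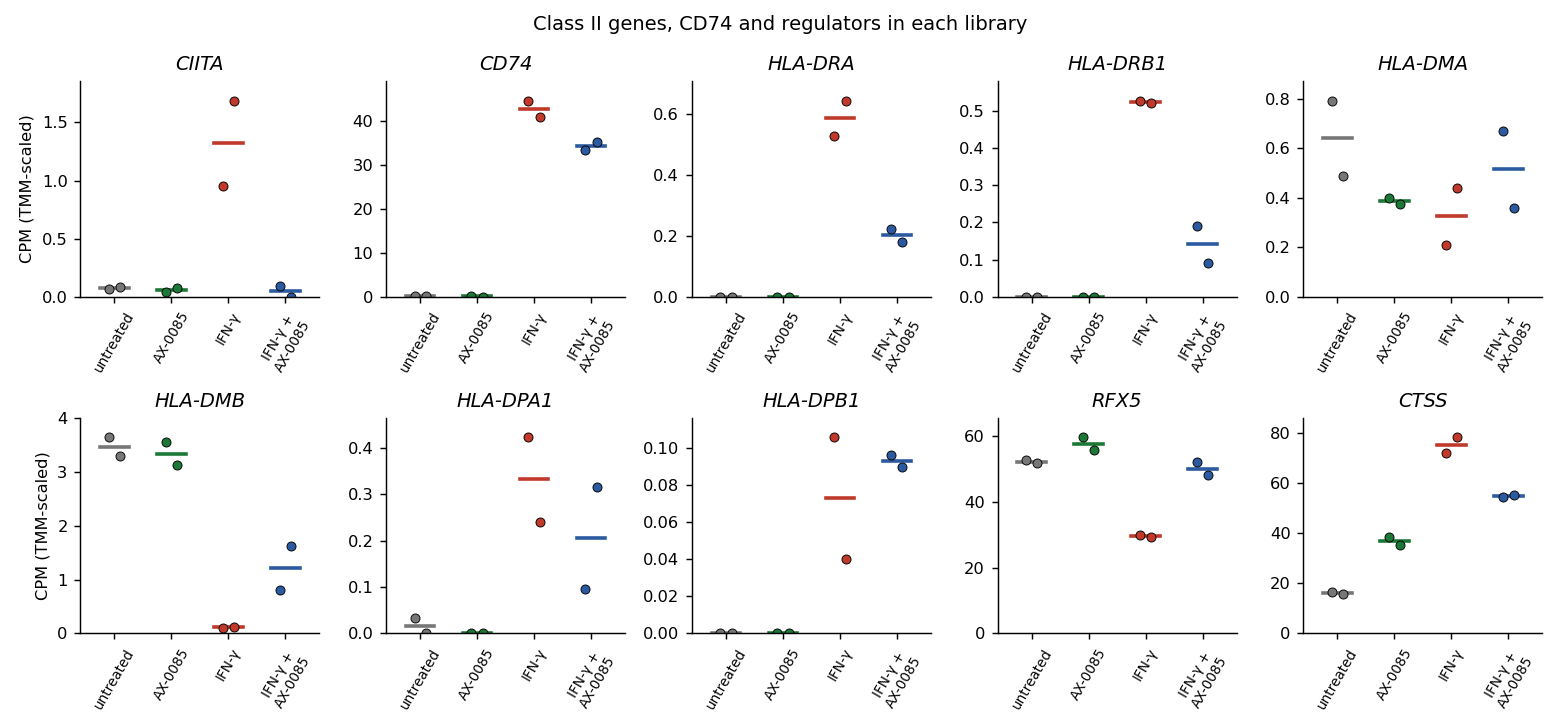
Level of each of the 10 genes in each library, in CPM (vertical axes start at 0 and differ between panels); each point is 1 library and each bar the mean of the 2 libraries of a group. CIITA is high only in the 2 libraries with IFN-γ alone, CD74 stays high with both agents, and HLA-DMB and RFX5 are lowest with IFN-γ alone.

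CIITA (ENSG00000179583, plus strand of chromosome 16, 10866222 to 10943021) had 2 and 2 counts in the untreated pair of libraries, 1 and 2 in the AX-0085 pair, 18 and 42 in the IFN-γ pair and 3 and 0 in the pair given both agents. Only the libraries with IFN-γ alone stood above 3 counts. The mean level was 1.32 ± 0.521 CPM (SD, n = 2) for IFN-γ alone and 0.0479 ± 0.0678 (SD, n = 2) for the combination. The log2 change of CIITA upon IFN-γ was 4.12 (standard error, SE, 0.59, adjusted p = 3.43e-05 in edgeR). From the pooled counts, 60 against 4, the ratio was 18.8 with an exact 95% counting interval of 6.96 to 71.1. With AX-0085 added CIITA was lower, with a log2 change of -4.48 (SE 0.62, edgeR, adjusted p = 3.08e-05), and 3 against 60 counts give a ratio of 0.0409 (0.00821 to 0.125). Without replicate 1 of the libraries with both agents, the remaining one is at 0 and the fitted change becomes -8.09, which is no bound. No fold is given between untreated, AX-0085 and combined treatment, since all of these libraries lay at or under 3 counts. At this depth a difference in CIITA among them was not detectable.

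With both agents CIITA stood at 7.27% and 0% of its mean with IFN-γ alone. Among factors that act at the CIITA promoter, IRF2 and USF1 were called neither with IFN-γ nor upon addition of AX-0085. IRF1 had 0 counts in all libraries, with no base of its span outside other genes.

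RFX5 (ENSG00000143390, minus strand of chromosome 1, 151340640 to 151347326), the DNA-binding subunit of the X box complex, had its lowest values with IFN-γ alone. Its counts were 1590 and 1270 in the untreated pair of libraries, 1497 and 1480 in the AX-0085 pair, 567 and 727 in the IFN-γ pair and 1629 and 1072 in the pair given both agents, or 52.1 ± 0.625, 57.6 ± 2.78, 29.6 ± 0.510 and 50.1 ± 2.75 CPM (SD, n = 2 each). The IFN-γ libraries lay below all others. Its log2 change was -0.82 upon IFN-γ (SE 0.08, edgeR, adjusted p = 5.45e-07) and 0.76 after addition of AX-0085 (SE 0.08, adjusted p = 1.33e-06), both under the fold needed for a call. Against untreated cells the combination differed by -0.06 (SE 0.07, adjusted p = 0.537).

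The partners of CIITA were examined as a list of 10 genes, 9 of which were tested (NFYA had 1 count in all, and no base of its span is free of other genes). IFN-γ raised 2 of them past the threshold, EP300 and CREBBP, the acetyltransferases p300 and CBP. Over all genes tested, 10.3% were called higher. EP300 rose from 39.2 and 34.6 CPM in the untreated pair to 71.3 and 84.7 in the IFN-γ pair (log2 change 1.08, SE 0.09, adjusted p = 2.05e-07). CREBBP rose from 73.4 and 72.0 CPM to 140 and 157 (log2 change 1.03, SE 0.07, adjusted p = 2.34e-08). Neither was called lower upon addition of AX-0085, with changes of -0.41 and -0.18. RFXAP, another subunit of the X box complex, was the only one called in that comparison, with 1.74 and 1.33 CPM in the IFN-γ libraries, 2.91 and 3.32 with both, and a change of 1.03 (SE 0.21, adjusted p = 0.000713). Of all genes, 16.5% were called higher there and 8.28% lower. The median log2 change of the 9 was 0.30 with IFN-γ and -0.18 upon addition of AX-0085, against -0.06 and 0.03 over all genes tested.

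HLA-DRA (ENSG00000204287, plus strand of chromosome 6, 32439878 to 32445046) encodes the DR alpha chain. It had 0 counts in all 4 libraries without IFN-γ, 10 and 16 upon IFN-γ and 7 and 4 upon both agents. With IFN-γ it was at least 5.29-fold higher than in untreated cells, taking 3 counts per library as the floor, and with both agents at least 1.82-fold higher. The libraries with both agents lay below those with IFN-γ. Between them the log2 change was -1.51 (SE 0.48, edgeR, adjusted p = 0.0167). Pooled, 11 against 26 counts are a ratio of 0.346 (exact 95% counting interval 0.154 to 0.725). The call was lost without replicate 2 of IFN-γ (adjusted p = 0.117) and without replicate 1 or 2 of the combination (0.0785 and 0.0903), and DESeq2 gave 0.199.

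HLA-DRB1 (ENSG00000196126, minus strand of chromosome 6, 32577902 to 32589848), the DR beta chain, behaved alike in its counts, with 0 in the 4 libraries without IFN-γ, 10 and 13 upon IFN-γ and 6 and 2 upon both agents. IFN-γ raised it at least 4.74-fold. With both agents its mean was 1.27 times the floor of untreated cells, but replicate 2, at 2 counts, lay under 3 counts itself. The log2 change upon addition of AX-0085 was -1.78 (SE 0.55, edgeR, adjusted p = 0.0134), a ratio of 0.285 (0.110 to 0.659) from 8 against 23 counts. This call was lost without replicate 2 of IFN-γ (adjusted p = 0.0626), without replicate 2 of the combination (0.0958) and with DESeq2 (0.159). Other DRB genes are close in sequence, so reads may be split between them, and HLA-DRB5 had at most 2 counts in a library. Relative to the IFN-γ mean, the libraries with both agents held 38.2% and 30.7% of HLA-DRA and 36.5% and 17.1% of HLA-DRB1.

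The DP chains stayed near the floor. HLA-DPA1 (ENSG00000231389, minus strand of chromosome 6, 33064569 to 33080775) had 1 and 0 counts in the untreated pair of libraries, 0 and 0 in the AX-0085 pair, 8 and 6 in the IFN-γ pair and 3 and 7 in the pair given both agents. Its pooled ratio of IFN-γ to untreated was 17.5 with an exact 95% counting interval of 2.66 to 740, and that of both agents to IFN-γ was 0.585 (0.232 to 1.42), within which a fall cannot be told from no change. HLA-DPB1 (ENSG00000223865, plus strand of chromosome 6, 33075990 to 33089696) had 0 counts in the 4 libraries without IFN-γ, 2 and 1 upon IFN-γ and 3 and 2 upon both agents, so no fold is given. Among the other class II chains, 7 of 9 could be matched in the table by symbol. HLA-DQA2 and HLA-DQB2 were at 0 throughout, HLA-DQA1 and HLA-DQB1 had 1 count each over all libraries, and HLA-DRB5, HLA-DOA and HLA-DOB had at most 2 in any library. None of these passed the filter.

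CD74 (ENSG00000019582, minus strand of chromosome 5, 150401637 to 150412969), the invariant chain, rose by the largest ratio among the genes with counts in untreated cells and kept most of it with AX-0085. It had 4 and 3 counts in the untreated pair of libraries, 3 and 1 in the AX-0085 pair, 845 and 1016 in the IFN-γ pair and 1046 and 784 in the pair given both agents. In CPM these were 0.127 ± 0.00718, 0.0785 ± 0.0578, 42.7 ± 2.68 and 34.3 ± 1.27 (SD, n = 2 each). The 4 libraries given IFN-γ, with or without AX-0085, lay far above the 4 without it, and those with both agents lay below those with IFN-γ alone. The log2 change of CD74 upon IFN-γ was 8.33 (SE 0.18, edgeR, adjusted p = 8.80e-13), a pooled count ratio of 332 with an exact 95% counting interval of 161 to 828. Upon addition of AX-0085 the change was -0.31 (SE 0.08, edgeR, adjusted p = 0.00424), a ratio of 0.805 (0.754 to 0.859) that lies well short of the 2-fold needed for a call. With both agents CD74 held 78.3% and 82.5% of its IFN-γ mean.

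Beside AX-0085 alone, the combination had a higher CD74 level (log2 change 8.70, SE 0.20, edgeR, adjusted p = 2.65e-11; count ratio 442, 172 to 1623). This value rests on 3 and 1 counts with AX-0085 alone and ranged from 8.11 without replicate 2 of that group to 9.66 without its replicate 1. The IFN-γ effect was 8.33 without and 8.70 with the inhibitor, and their difference, the interaction term, was 0.37 (SE 0.68, adjusted p = 0.721). In the comparison of both agents with AX-0085 alone, CD74, HLA-DRA and HLA-DRB1 were called higher and HLA-DMB lower, where 1.79% of all genes were called higher and 1.73% lower. Leaving out replicate 2 of AX-0085 alone or replicate 1 of the combination ended the calls of both DR chains there, and leaving out replicate 1 of AX-0085 alone ended that of HLA-DRB1 (adjusted p between 0.0562 and 0.169). Expressed as the part of the log2 IFN-γ change that AX-0085 removed, CTSS lost 20.6% and CD74 3.78%. AX-0085 alone also raised CTSS, so its share against untreated cells holds that rise too. From AX-0085 alone to both agents CTSS changed by 0.57 (SE 0.08, edgeR, adjusted p = 0.000106), not called. Without the inhibitor its IFN-γ change was 2.23. No share is given for CIITA, whose untreated and combined libraries lay at or under 3 counts. The CD74 share depends on 4 and 3 counts in untreated cells. In mean CPM, untreated, IFN-γ and combined cells had 0.127, 42.7 and 34.3 for CD74 and 16.1, 75.3 and 54.9 for CTSS. These shares come from the same libraries as the changes they are made of and are a description. The plot of levels relative to IFN-γ alone sets the genes side by side.

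**Figure D2:**
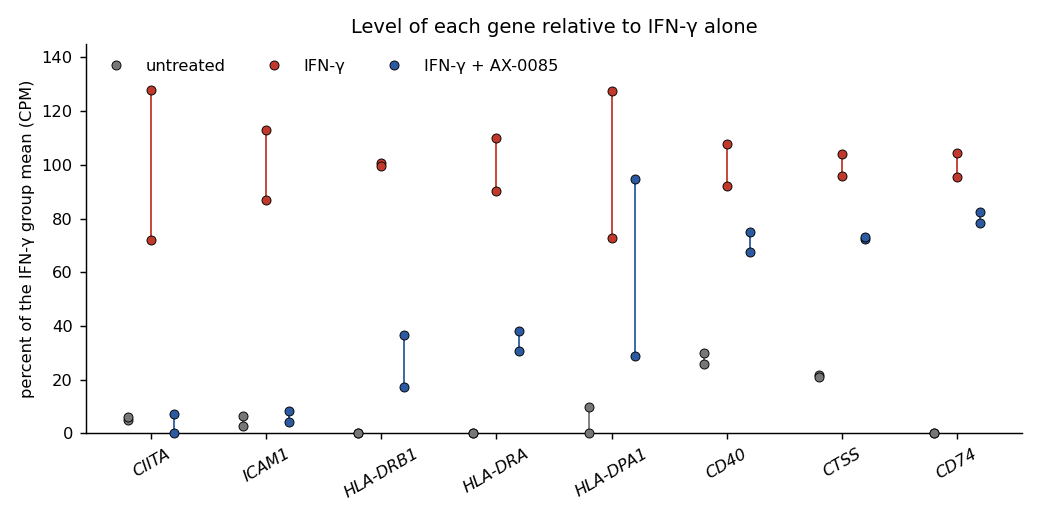
Level of 8 genes raised by IFN-γ or examined beside it, in each library, as a percent of the gene's mean over the 2 IFN-γ libraries (vertical axis, linear, from 0); points are libraries and lines join the 2 libraries of a group. With both agents CIITA and ICAM1 lie at or under 8.41%, the DR chains between 17.1% and 38.2%, and CTSS, CD40 and CD74 between 67.4% and 82.5%. AX-0085 alone, not drawn, had CTSS at 51.2% and 47.2%.

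HLA-DMB (ENSG00000242574, minus strand of chromosome 6, 32934629 to 32941028), the beta chain of the peptide exchanger, was present without IFN-γ and nearly absent with IFN-γ alone, as far as its 3′ end shows. Its counts were 110 and 81 in the untreated pair of libraries, 89 and 83 in the AX-0085 pair, 2 and 3 in the IFN-γ pair and 25 and 36 in the pair given both agents. The 4 groups, at 3.47 ± 0.241, 3.33 ± 0.298, 0.113 ± 0.0106 and 1.21 ± 0.579 CPM (SD, n = 2 each), overlapped only between untreated cells and AX-0085. IFN-γ lowered it, with a log2 change of -4.87 (SE 0.43, edgeR, adjusted p = 3.57e-07), from 191 to 5 counts, a ratio of 0.0327 (exact 95% counting interval 0.0105 to 0.0777). With AX-0085 added it was higher than with IFN-γ alone by a log2 change of 3.28 (SE 0.55, adjusted p = 0.000146), a ratio of 9.99 (4.05 to 31.9). The combination lay below untreated cells by a log2 change of -1.59 (SE 0.26, adjusted p = 0.000151) and below AX-0085 alone by -1.53 (SE 0.26, adjusted p = 0.000655).

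For HLA-DMA (ENSG00000204257, minus strand of chromosome 6, 32948613 to 32969094) the row holds 24 and 12 counts in the untreated pair of libraries, 10 and 10 in the AX-0085 pair, 4 and 11 in the IFN-γ pair and 21 and 8 in the pair given both agents. No comparison called it, and since these counts come from outside the main transcript they say nothing of the alpha chain's response. ENSG00000248993, whose span overlaps both HLA-DMA and HLA-DMB, had 0 counts in all libraries.

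CTSS (ENSG00000163131, minus strand of chromosome 1, 150730079 to 150765957) encodes cathepsin S, which cuts CD74 in the endosome. It had 496 and 388 counts in the untreated pair of libraries, 968 and 944 in the AX-0085 pair, 1368 and 1950 in the IFN-γ pair and 1709 and 1227 in the pair given both agents. The groups did not overlap, at 16.1 ± 0.430, 37.0 ± 2.14, 75.3 ± 4.34 and 54.9 ± 0.361 CPM (SD, n = 2 each). IFN-γ raised it 4.68-fold (log2 change 2.23, SE 0.08, edgeR, adjusted p = 6.92e-11). AX-0085 on its own raised it too, 2.30-fold (log2 change 1.20, SE 0.08, adjusted p = 8.55e-08), and CTSS was the only one of the genes called in that comparison, in which 6.41% of all genes were called higher and 5.62% lower. Added to IFN-γ, the same agent gave CTSS a log2 change of -0.46 (SE 0.07, adjusted p = 0.000115), under the fold needed for a call.

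The effect of AX-0085 on CTSS therefore had opposite signs without and with IFN-γ, and the difference was -1.66 on the log2 scale (interaction term, SE 0.11, edgeR, adjusted p = 9.67e-08). Interaction terms were called for 3 of the 8 tested genes, CIITA and CTSS in the negative direction and HLA-DMB in the positive (3.35, SE 0.60, adjusted p = 0.00047), where 6.46% of all genes were called negative and 12.1% positive. Of the 8, HLA-DRA and HLA-DRB1 could not be called for this term, as they had 0 counts in every library without IFN-γ. The CIITA term of -4.17 (SE 1.58, adjusted p = 0.0428) rests on 7 counts in the libraries without IFN-γ. It was no longer called with library size alone as the scale (adjusted p = 0.051) or without any one of 6 of the 8 libraries (adjusted p from 0.0655 to 0.258), namely either untreated, either AX-0085, the second IFN-γ or the second combined library. Compared with untreated cells, the combination had 4 genes called higher (CD74, HLA-DRA, HLA-DRB1, CTSS) and 1 lower (HLA-DMB), against 7.51% and 7.23% of all genes. HLA-DRB1 was no longer called there without replicate 1 of the untreated cells (adjusted p = 0.0605) or of the combination (0.105).

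**Figure D3:**
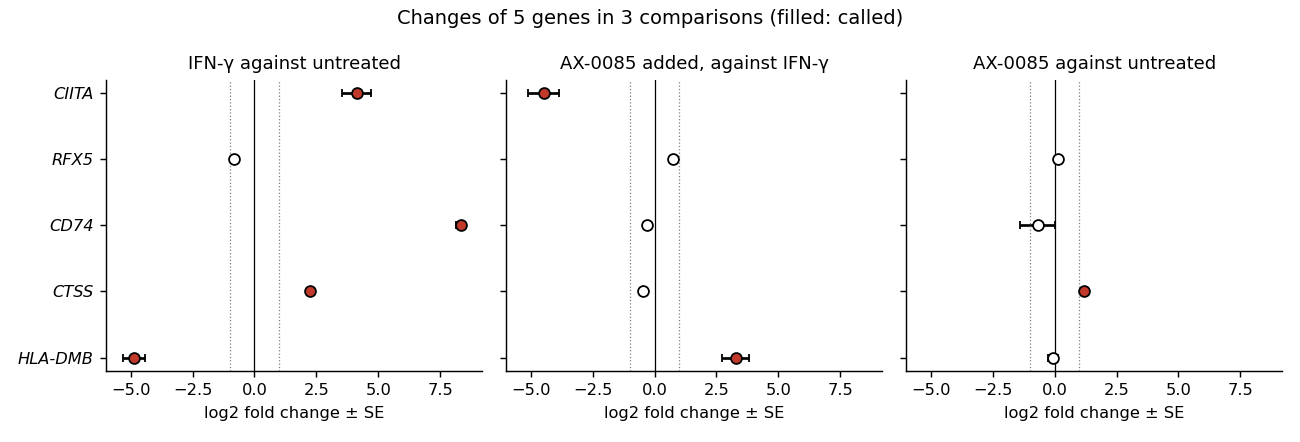
Log2 fold change with its standard error (horizontal axis) of 5 genes in 3 comparisons; filled points passed both thresholds, dotted lines mark a 2-fold change, and no value is drawn for CIITA with AX-0085 alone, where all counts were 2 or fewer. CIITA changes by 4.12 with IFN-γ and by -4.48 where AX-0085 is added, while CD74 changes by 8.33 and, not called, by -0.31.

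Around CTSS, the other endosomal genes included 3 cathepsins that IFN-γ lowered. In a list of 12 proteases, inhibitors and turnover factors, 10 were tested, and IFI30 and CTSD were at 0 in all libraries, with 0% and 5.24% of their spans outside other genes. IFN-γ lowered 3 of the 10 past the threshold, the cathepsins CTSV, CTSF and CTSH, and the other 7 were not called. Over all genes tested, 17.2% were called lower and 10.3% higher. CTSV, the protease closest in sequence to cathepsin L, had 510 and 371 counts in the untreated pair of libraries, 251 and 291 in the AX-0085 pair, 17 and 13 in the IFN-γ pair and 181 and 129 in the pair given both agents. Its log2 change was -4.53 with IFN-γ (SE 0.19, adjusted p = 2.11e-10) and 3.07 upon addition of AX-0085 (SE 0.22, adjusted p = 4.66e-08), which left it below untreated cells by -1.47 (adjusted p = 4.17e-07).

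CTSF, a cathepsin able to cut CD74 in macrophages, had 766 and 678 counts in the untreated pair of libraries, 887 and 902 in the AX-0085 pair, 78 and 59 in the IFN-γ pair and 773 and 510 in the pair given both agents. The changes were -3.07 with IFN-γ (SE 0.16, adjusted p = 1.67e-09) and 2.92 upon addition of AX-0085 (SE 0.16, adjusted p = 3.74e-09). CTSH, an aminopeptidase, went from 466 and 387 counts to 79 and 92 with IFN-γ and to 338 and 275 with both, changes of -1.99 and 1.56 (adjusted p = 1.26e-08 and 2.36e-07). MARCHF8, a ubiquitin ligase that removes class II molecules and other proteins from the surface, had 39.6 and 40.2 CPM untreated, 25.1 and 26.6 upon IFN-γ and 55.2 and 54.6 upon both agents. Only its change upon addition of AX-0085, 1.08 (SE 0.07, adjusted p = 2.81e-08), was called. CTSL had a change of 0.65 with IFN-γ and CTSB one of -0.16, neither called. The median log2 change of the 10 was -0.23 with IFN-γ and 0.38 upon addition of AX-0085, against -0.06 and 0.03 over all genes tested.

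**Figure D4:**
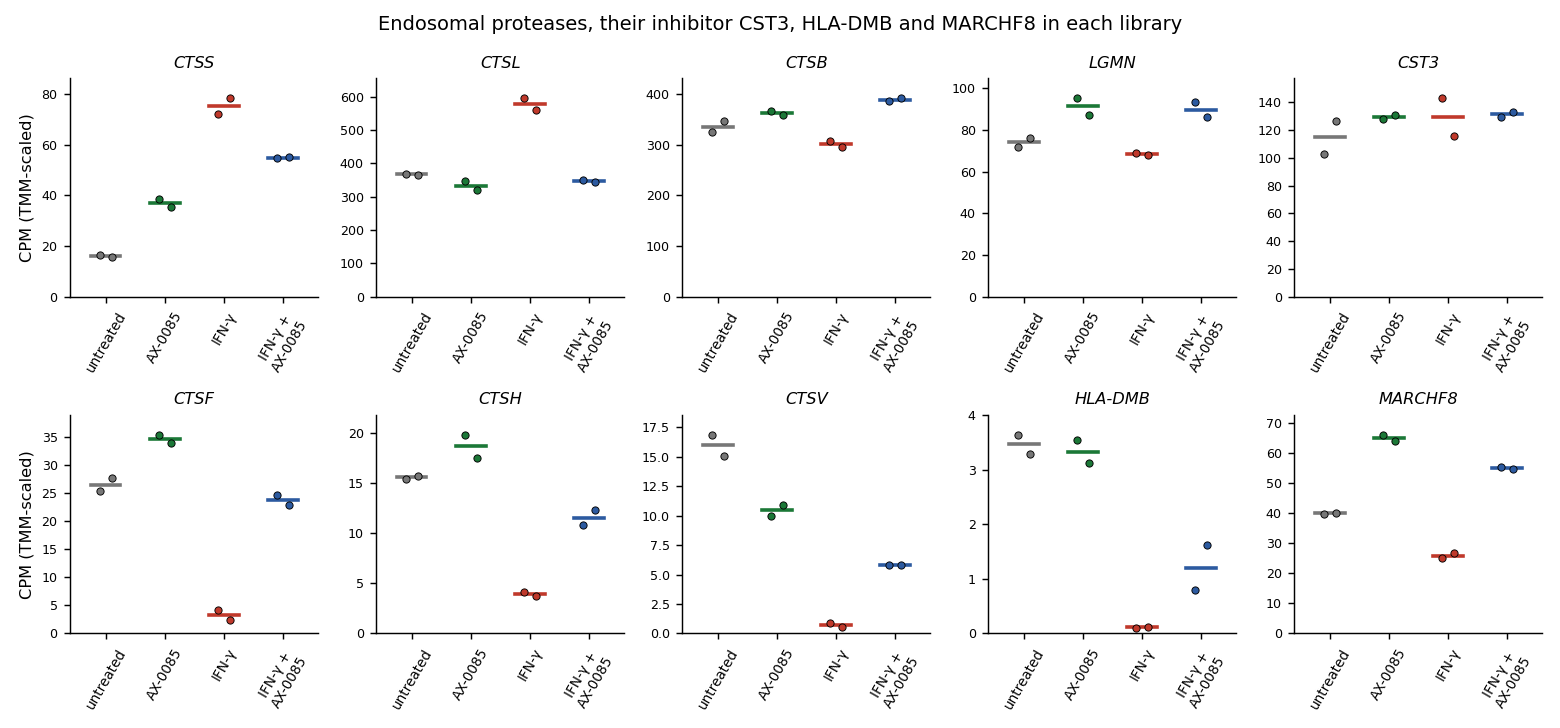
Level of CTSS and 7 other endosomal protease or protease inhibitor genes, HLA-DMB and MARCHF8 in each library, in CPM (vertical axes start at 0 and differ between panels); points are libraries and bars the means of the 2 libraries of a group. With IFN-γ alone CTSS is at its highest, while CTSF, CTSH, CTSV and HLA-DMB are at their lowest.

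Ligands that accompany class II in the activation of T cells were mixed. Of 7 co-stimulatory or adhesion genes, 5 were tested. IFN-γ raised CD40 and ICAM1 and lowered ICOSLG, where 10.3% of all genes were called higher and 17.2% lower. ICAM1, the ligand of LFA-1, had 3 and 6 counts in the untreated pair of libraries, 0 and 2 in the AX-0085 pair, 80 and 81 in the IFN-γ pair and 5 and 7 in the pair given both agents, read from the 4.46% of its span outside other genes. Its log2 change was 4.45 with IFN-γ (SE 0.41, edgeR, adjusted p = 5.25e-07) and -4.01 upon addition of AX-0085 (SE 0.39, adjusted p = 1.04e-06). ICAM1 passed the filter only through the libraries with IFN-γ alone, so both changes were favoured beforehand and their p-values are a description. CD40, a receptor that T cells engage, kept most of its rise, with 92 and 86 counts in the untreated pair of libraries, 83 and 77 in the AX-0085 pair, 240 and 269 in the IFN-γ pair and 275 and 176 in the pair given both agents. Its changes were 1.84 (SE 0.14, adjusted p = 8.89e-08) and -0.48 (SE 0.13, adjusted p = 0.00431), the latter not called. ICOSLG went from 189 and 164 counts in the untreated pair to 47 and 85 in the IFN-γ pair, a change of -1.11 (adjusted p = 7.99e-05). TNFSF4 (OX40 ligand) was called higher upon addition of AX-0085 on 2 and 3 counts against 7 and 14 (edgeR, adjusted p = 0.035). It was also called higher with AX-0085 alone, on 3 and 3 untreated counts against 10 and 10 (log2 change 1.78, edgeR, adjusted p = 0.0335). TNFSF4 passed the filter only through libraries given AX-0085, so both calls were favoured beforehand and are a description. CD80 and CD86, the ligands of CD28, had at most 5 counts in a library and were not tested.

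Levels can be compared between genes only per length, and were taken as CPM per kb of merged exons. With IFN-γ alone the order was CTSS (10.9 ± 0.630, SD, n = 2), CD74 (9.44 ± 0.591), RFX5 (6.49 ± 0.112), HLA-DRA (0.470 ± 0.0653), HLA-DRB1 (0.170 ± 0.00127), HLA-DMA (0.130 ± 0.0648, from outside its main transcript), CIITA (0.0585 ± 0.0231), HLA-DPA1 (0.0577 ± 0.0223), HLA-DMB (0.0245 ± 0.00229) and HLA-DPB1 (0.0140 ± 0.00885). The libraries of neighbours overlapped for HLA-DRB1 with HLA-DMA and for CIITA with HLA-DPA1, so their order is not resolved. The CD74 level per kb was 19.7 times that of HLA-DRA with IFN-γ and 45.7 times with both agents. With the bases of the main transcript outside other genes as length, these ratios were 53.5 and 124. On that length the order with IFN-γ also turned for CD74 (25.8 CPM per kb) and CTSS (19.1), and for HLA-DMB (0.162) and CIITA (0.157), with HLA-DPA1 at 0.198. In untreated cells the order was led by RFX5 (11.4), CTSS (2.34) and HLA-DMB (0.752), where the other length put HLA-DMB (4.97) above CTSS (4.09), and CD74 stood at 0.0281, above CIITA at 0.00327. CIITA, HLA-DPA1, HLA-DPB1, HLA-DRA and HLA-DRB1 could not be ordered there.

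The genes whose log2 CPM over the 8 libraries was most like that of CD74, among 12349 candidates, were SMOX (spermine oxidase), HCP5 (a noncoding gene of the MHC region), SLC3A2, MANBAL and TAFAZZIN, with Pearson's r from 0.997 down to 0.990. Each point is 1 library, and libraries of a group share their treatment. HCP5 had 6 and 4 counts in the untreated pair of libraries, 3 and 4 in the AX-0085 pair, 419 and 472 in the IFN-γ pair and 326 and 253 in the pair given both agents, log2 changes of 6.77 for IFN-γ and, not called, -0.91 for the added AX-0085. SMOX had log2 changes of 1.79 and, not called, -0.11. For CIITA the genes were the unnamed ENSG00000273329, GRIPAP1, CAPRIN2, RRAS2 and SLC25A37 (r from 0.986 to 0.980). CAPRIN2 had changes of 1.38 and -1.56 and RRAS2 of 1.48 and -1.66. With counts as low as those of CIITA this choice is loose, as only 1 of the 5 remained when the prior count added before the logarithm was 0.5 and not 2.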

How the data were processed

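Per the labels and the study's methods, polyadenylated RNA libraries (TruSeq Stranded mRNA) were sequenced as paired ends; the authors trimmed reads with Trim Galore 0.6.7, used STAR 2.7.9a for alignment (GRCh38) and featureCounts for gene-level counting, and deposited the raw counts of 8 libraries, without normalization. Rows were matched to symbols by Ensembl identifier (60463 of 60664). From the counts, edgeR 4.0.16 in R 4.3.3 (filterByExpr, TMM) was fitted with all 4 groups, without covariates, and tested by quasi-likelihood. A standard error is the log2 change divided by the root of F. Groups of 2 allow no exact two-sided permutation p under 0.333, so p-values come only from the model across genes. The libraries of each group differed by more than sampling noise (chi-square per degree of freedom 9.34 to 30.7). The procedure was tested on simulated data.

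Genes named are the 10 chosen ones, those of the fixed lists called in IFN-γ against untreated or in both against IFN-γ, and the 5 most alike to CIITA and to CD74 among tested genes averaging 0 or more in log2 CPM (prior count 2). These genes and lists were chosen with earlier results of these data known. Other named genes (IRF1, IRF2, USF1, NFYA, CTSL, CTSB, IFI30, CTSD, CD80, CD86, HLA-DRB5 and the other class II chains) are list members given for completeness, chosen after their values were seen. The X box stretch was to be read from HLA-DRA, which has no entry in the promoter table, and HLA-DRB1 was used. Alternatives were DESeq2 1.42.0, RLE factors, library size alone, other filters, the adjusted p alone, only the groups compared, the replicate block, leaving out each library, other lengths and another prior count. Some genes of the lists are not reported here.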

Additional observations from a re-analysis of the deposited data

Results flagged for a closer look

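For 3 of the genes, the fitted effect of AX-0085 in IFN-γ-treated cells differed from its effect in cells without IFN-γ, tested as an interaction term in edgeR with Benjamini-Hochberg adjustment. For CTSS the difference was -1.66 on the log2 scale (standard error 0.11, adjusted p = 9.667e-08): AX-0085 raised it without IFN-γ, in both libraries, and both libraries with the 2 agents lay below both IFN-γ libraries. For HLA-DMB it was 3.35 (standard error 0.60, adjusted p = 0.0004697), with a change of -0.06 without and 3.28 with IFN-γ. For CIITA it was -4.17 (standard error 1.58, adjusted p = 0.04277), from 4 counts in untreated cells and 3 with AX-0085 alone, so that no ratio is given between these groups. The CIITA call was lost under 7 of 14 alternatives. Groups of 2 libraries are too small to test for a library that stands apart.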

How the results depend on the processing

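Of the 613 values of single genes recomputed, 585 kept their direction and side of the threshold, 21 kept the direction only, and 7 changed sign. The counts of genes called were 6 with IFN-γ against untreated, 4 with both against IFN-γ, 1 with AX-0085 against untreated, 4 with both against AX-0085, 5 with both against untreated and 3 for the interaction. Requiring at least 10 counts in every library left only RFX5 and CTSS tested, and the counts became 1 with IFN-γ, 0 with both against IFN-γ, 0 with both against AX-0085, 1 with both against untreated and 1 for the interaction. With the adjusted p alone, both against IFN-γ gave 7. DESeq2 gave 2 with both against IFN-γ, where the DR chains were lost, and 2 with both against AX-0085. Fitting only the groups compared gave 2 with both against AX-0085 and 3 with both against untreated; the cause was not tested. Leaving out 1 library at a time, counts ranged from 6 to 7 with IFN-γ against untreated, 2 to 4 with both against IFN-γ, 2 to 5 with both against AX-0085, 4 to 6 with both against untreated and 2 to 3 for the interaction. The values that changed sign were uncalled and ranged, leaving out 1 library at a time, from -0.15 to 0.029 for HLA-DMB with AX-0085 against untreated, from -0.078 to 0.79 for HLA-DMA with both against AX-0085, from -0.81 to 0.18 for HLA-DMA and from -0.074 to 0.00085 for RFX5 with both against untreated, and from -0.22 to 1.33 for the CD74 interaction. CIITA, HLA-DRA, HLA-DRB1, HLA-DPA1 and HLA-DPB1 rest on few counts.

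Libraries with the same replicate number showed no shared deviation: correlations of their deviations lay between -0.109 and 0.0873. This does not settle whether they were prepared as pairs. With the replicate block the counts were 6, 4, 1, 4, 5 and 3 in the order given, as in the fit without it. A block with crossed untreated numbers, chosen after seeing the data, also gave 6, 4, 1, 4, 5 and 3.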
